A study of Mus musculus with 6 samples.

Results

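Proteins bound for the cell surface, the secretory granules or the medium are threaded into the endoplasmic reticulum (ER), folded there by chaperones and disulfide-forming enzymes, and, if folding fails, passed back to the cytosol for destruction by ER-associated degradation (ERAD). A set of 40 genes for these steps was examined: 11 ER chaperones and their partners, 9 disulfide and isomerase enzymes, 12 ERAD genes, 4 genes of the ER stress sensors and their effectors, and 4 genes of the translocon, the channel through which proteins enter the ER. Members were chosen by gene symbol, for their known roles, from the 54532 genes of the deposited count table. The choice was made with earlier results of these data known. All 40 were found and all 40 had enough counts to be tested.

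The libraries came from haematopoietic stem and progenitor cells (HSPCs), the cells that renew the blood, from marrow of aged C57BL/6 mice of wild-type genotype. RNA was extracted with Trizol from cells in culture, and messenger RNA was captured on poly-T beads and sequenced in pairs of 150-base reads. There were 3 libraries of cells given vehicle and 3 of cells given uridine, a nucleoside from which cells make pyrimidine nucleotides, and the comparison asks which transcripts differ between them. The labels give no age in months, dose, duration, sorting markers or sex, and do not say whether replicates were separate cultures or mice.

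ER folding capacity is adjusted by the unfolded protein response. The chaperone BiP (gene Hspa5) holds the membrane sensors IRE1 (Ern1), ATF6 and PERK (Eif2ak3) in check, and unfolded proteins release them. IRE1 then splices the messenger RNA of the transcription factor XBP1, ATF6 is cut to free its own transcription factor part, and PERK slows translation while favouring ATF4. XBP1 and ATF6 act on chaperone and ERAD genes through short promoter motifs, of which the ER stress response element (ERSE) is the best known. Haematopoietic stem cells are known for sensitivity to ER stress.

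ERSE motifs are shown here because XBP1 and ATF6 act on chaperone and ERAD genes through them. The genes were chosen for known roles and not by motif, so the motif shares below only describe the set. RefSeq promoters of the GRCm38.p6 assembly, from 250 bases before to 50 bases after each annotated start, were available for 34 of the 40 genes, and were searched on both strands. ERSE, spelled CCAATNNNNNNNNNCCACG, occurred in 10 of the 34 genes (29.4%) and in 37 of the 27025 genes of the promoter table (0.137%). ERSE-II, spelled ATTGGNCCACG, occurred in 2 of the 34 (5.88%), Herpud1 and Dnajb11, and in 12 genes of the table (0.0444%). Together 12 of 34 (35.3%) held an element of either kind, against 49 of 27025 (0.181%), and no match of one motif overlapped a match of another. The 11 ERSE matches lay 26 to 212 bases before the start, 6 of them on the strand of the gene and 5 on the opposite strand. Each is written below 5′ to 3′ on the strand where CCAAT comes first, and for ERSE-II on the strand where ATTGG comes first, with the fixed letters of the motif in capitals.
Hspa5, chr2:34772025-34772043, plus strand: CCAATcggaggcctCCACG
Hsp90b1, chr10:86705638-86705656, minus strand: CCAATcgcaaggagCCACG
Hsp90b1, chr10:86705533-86705551, plus strand: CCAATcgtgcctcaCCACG
Calr, chr8:84847075-84847093, plus strand: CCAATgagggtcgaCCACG
Canx, chr11:50325800-50325818, minus strand: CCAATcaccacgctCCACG
Creld2, chr15:88819520-88819538, minus strand: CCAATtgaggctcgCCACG
Dnajc3, chr14:118937827-118937845, plus strand: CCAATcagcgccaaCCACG
Pdia6, chr12:17266491-17266509, plus strand: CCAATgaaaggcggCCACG
Ero1lb, chr13:12565682-12565700, minus strand: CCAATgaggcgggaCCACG
Syvn1, chr19:6046532-6046550, plus strand: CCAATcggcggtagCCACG
Derl3, chr10:75893242-75893260, minus strand: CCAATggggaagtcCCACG
Herpud1, chr8:94386377-94386387, plus strand: ATTGGgCCACG
Dnajb11, chr16:22857852-22857862, plus strand: ATTGGcCCACG

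The 250 bases before the RefSeq start are given in full for Hspa5 and Calr, the ERSE-bearing genes that made the largest contributions to the change in summed level described further on, and for Herpud1, which holds ERSE-II and was not called lower. Capitals mark the exact ERSE match in Hspa5 and in Calr, where it reads on the opposite strand to the gene. In Herpud1 they mark a match to TGATGNAA, a motif bound by ATF4 and related factors, on the opposite strand and then the ERSE-II. The sequences run 5′ to 3′ on the strand of the gene. In the deposited table Hspa5 begins at base 34771970, inside this window, so its RefSeq start is the later of the 2.
Hspa5, chr2:34771840-34772089, plus strand: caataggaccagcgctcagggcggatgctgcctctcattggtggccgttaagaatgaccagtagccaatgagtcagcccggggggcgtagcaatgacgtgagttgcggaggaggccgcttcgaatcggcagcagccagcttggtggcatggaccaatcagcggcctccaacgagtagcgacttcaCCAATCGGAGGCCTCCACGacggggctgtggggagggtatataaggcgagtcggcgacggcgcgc
Calr, chr8:84846932-84847181, minus strand: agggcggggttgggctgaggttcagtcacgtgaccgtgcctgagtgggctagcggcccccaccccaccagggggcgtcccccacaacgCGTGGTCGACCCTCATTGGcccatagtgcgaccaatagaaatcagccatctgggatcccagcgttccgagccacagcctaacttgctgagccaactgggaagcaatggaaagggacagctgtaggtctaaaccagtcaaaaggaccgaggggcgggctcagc
Herpud1, chr8:94386179-94386428, plus strand: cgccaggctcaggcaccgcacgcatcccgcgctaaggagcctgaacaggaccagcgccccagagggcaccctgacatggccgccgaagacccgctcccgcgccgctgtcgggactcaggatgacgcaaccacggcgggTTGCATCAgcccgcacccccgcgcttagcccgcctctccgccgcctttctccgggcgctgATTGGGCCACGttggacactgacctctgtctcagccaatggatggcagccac
A match describes letters in this window and does not show that a factor binds there. Only exact spellings were searched for, so near matches were not counted. The UPRE core, spelled TGACGTGG, matched 3 of the 34 genes (8.82%) against 0.714% of all genes, and TGATGNAA matched 2 (5.88%) against 4.51%.

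**Figure D1:**
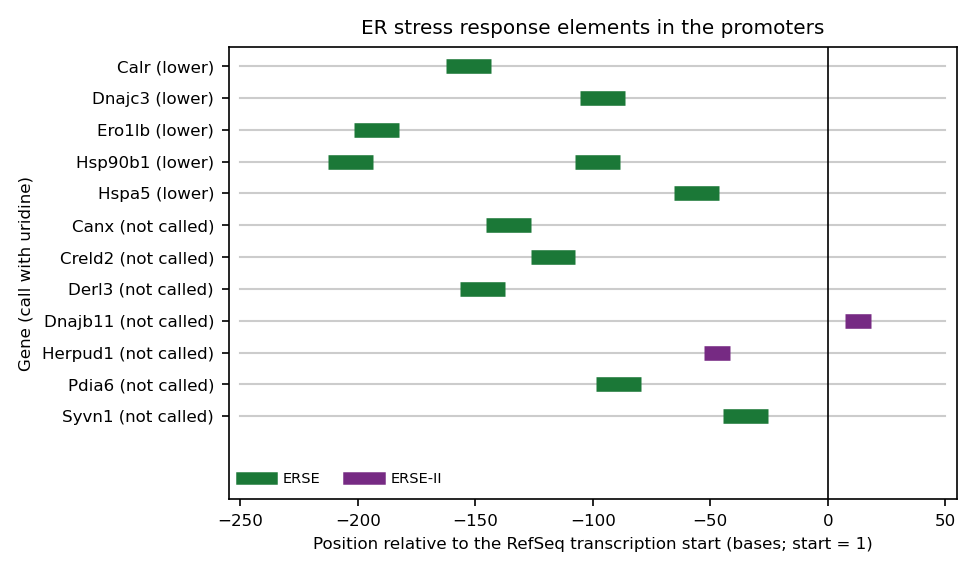
Positions of ERSE (green) and ERSE-II (purple) matches in the promoters of the 12 genes that hold them; the horizontal axis is the distance in bases from the RefSeq transcription start, and the name of each gene is followed by its call in the uridine comparison. ERSE matches lie 26 to 212 bases before the start, in 5 genes called lower and 5 genes not called.

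The libraries held 16109265 to 18638627 counts each. A count of 3, the limit a count of 0 allows, corresponds to 0.161 to 0.186 CPM, counts scaled to equal library totals, and covers counting error only. The labelled cell type was checked on 12 HSPC genes, all of which were tested, with a summed level of 1685 to 1727 CPM in vehicle and 1692 to 1708 CPM in uridine libraries. That even sum hides changes in both directions: 5 of the 12 were called higher (Hlf, Meis1, Hoxa9, Kit and Mecom) and 4 lower (Ly6a, Flt3, Ptprc and Cd48), which is 75%, against 17.3% of all genes tested. Kit stood at 365 CPM in vehicle and 383 CPM with uridine, Cd34 at 620 and 618 CPM, and Ly6a, which was low, at 15 and 3.5 CPM. Markers of blood cell lineages, which do not separate mature cells from progenitors here, also moved in both directions. Of 16 monocyte and macrophage markers 16 were called lower with uridine, their sum going from 830 to 851 CPM in vehicle to 364 to 366 CPM, and none was at 0 in all libraries. Of the 17 neutrophil and granule markers that could be tested out of 18, 15 were called lower and 1 higher, and their sum went from 3113 to 3184 CPM to 1673 to 1717 CPM. Plasma cells, which are rich in ER, were represented by 17 plasma cell and B cell markers, of which 15 could be tested. Of these 3 (Igkc, Ighm and Jchain) were called lower and none higher, which is 20%, near the 17.3% of all genes tested. Estimates were below 0 in 7 and above 0 in 8, with a median log2 fold change of 0.01. The sum went from 286 to 287 CPM in vehicle to 198 to 213 CPM with uridine. Ighm, Igkc and Jchain made up most of that sum, at 116, 85.2 and 50.3 CPM in vehicle. Of that list Sdc1, the plasma cell surface marker, stood at 11.4 CPM in vehicle and 9.82 CPM with uridine, Mzb1 at 1.17 and 1.35 CPM, and Tnfrsf17 and Ms4a1 were too low to test. Erythroid markers went the other way, with 3 called higher and none lower of 5 that could be tested out of 11, and a sum of 325 to 341 CPM in vehicle and 409 to 418 CPM with uridine, while Hba-a1 and Hba-a2 were at 0 in all libraries. Of 11 mast cell and basophil markers 10 could be tested, of which 4 were called higher and 3 lower, and their sum was 418 to 421 CPM in vehicle and 449 to 479 CPM with uridine. Of 9 megakaryocyte markers 8 could be tested, of which 4 were called higher and 2 lower, and their sum was 3865 to 3906 CPM in vehicle and 4093 to 4150 CPM with uridine. The part of these cells in the ER results was not tested, and in bulk RNA fewer cells of a type and less RNA per cell cannot be told apart.

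With uridine 19 of the 40 ER genes fell, 1 rose and 20 did not pass the test (edgeR's quasi-likelihood test with Benjamini-Hochberg adjustment over 14706 genes, called at an adjusted p under 0.05). The called share was 50%, against 17.3% of all genes tested, and the share called lower was 47.5%, against 10.1%. Members were chosen with earlier results of these data known, so these shares only describe the set. Calls higher made up 7.18% of all genes. Most of these genes are well expressed, which makes small changes easier to call, so the background was also taken over the 8682 genes at a mean of 15 CPM or more, a limit chosen after the values were seen. In that background 13.1% of genes were called lower and 9.99% higher, and 39 of the 40 ER genes belong to it, 19 of them called lower. The limit is only a minimum and does not match the background to the ER genes in abundance. The part of abundance in the shares was not tested. The median log2 fold change of the 40 genes was -0.09, against 0.01 for all genes. Of the 40 estimates 34 were below 0, against 7140 of the 14706 over all tested genes.

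Changes were small in size. The 19 genes that fell differed by -25.8% to -4.31%, with a median of -11.1%. Summed over the 40 genes, the level was 10028, 10104 and 10039 CPM in the vehicle libraries and 9326, 9389 and 9381 CPM in the uridine libraries. Every uridine library was below every vehicle library, and the mean went from 10057 ± 41.3 CPM to 9365 ± 34.3 CPM (SD, n = 3), a difference of -6.88%. The largest parts of the net difference came from chaperones: Calr made up 22.3% of it, Hspa5 11.0%, Hsp90b1 8.44% and Hyou1 8.44%, together 50.1%. Canx, a chaperone with a higher CPM than Hsp90b1 and Hyou1, made up 2.69%. In 22 genes the uridine libraries all lay below the vehicle libraries and in 4 they all lay above, where 16.1% and 14.7% of all genes did so. In 29 genes all 3 uridine libraries were below the vehicle mean. The share of all genes that did so was not counted, so this number has no background and only describes the set.

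**Figure D2:**
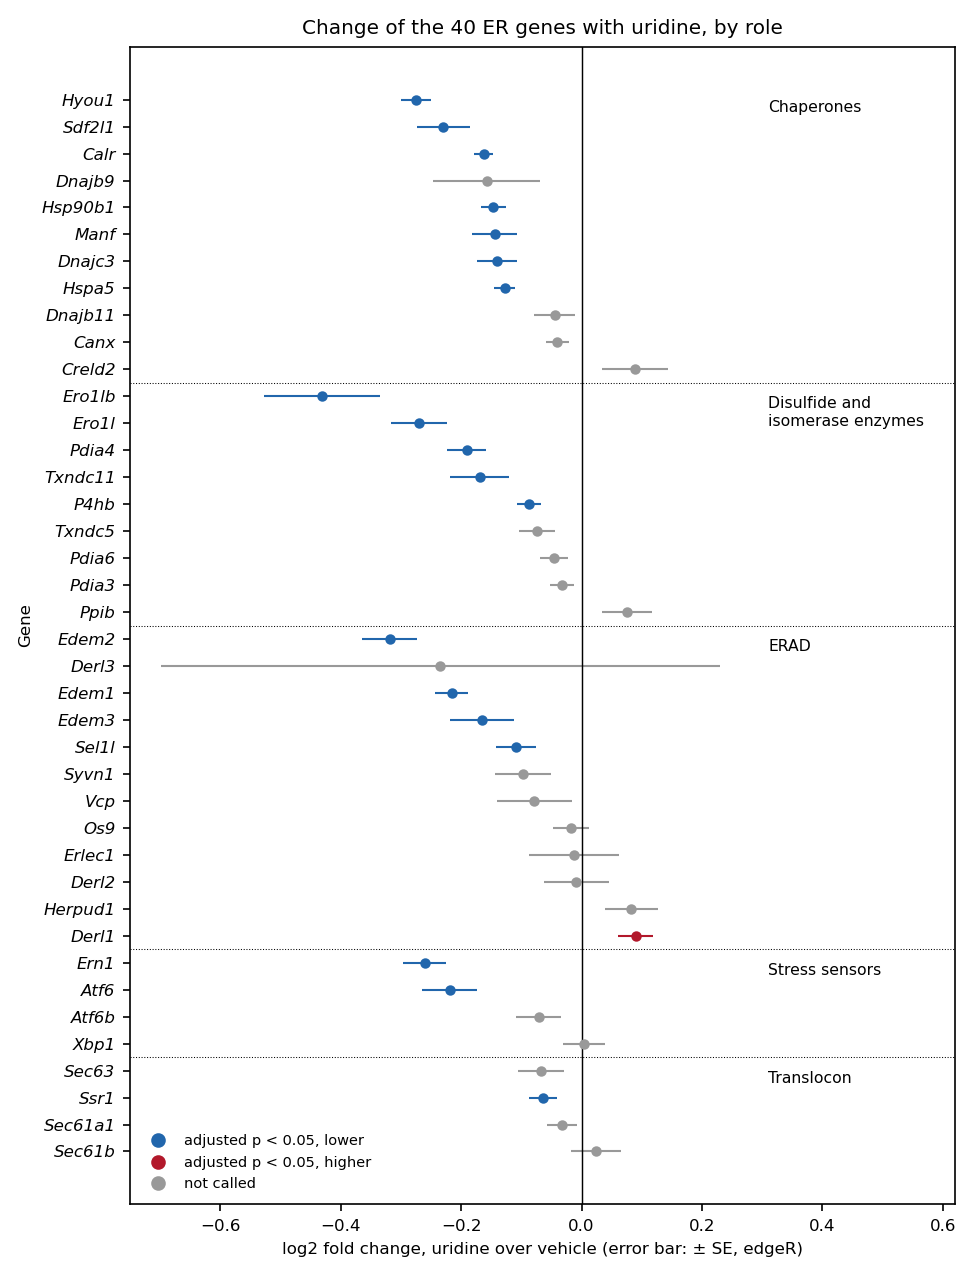
Log2 fold change of uridine over vehicle for the 40 ER genes, grouped by role and ordered by size within each role; points are edgeR estimates, bars ± SE, from 3 libraries a group, with colours for adjusted p under 0.05 (blue lower, red higher, grey not called). Blue points number 19 and red points 1, and the estimates that fell run from -0.43 for Ero1lb to -0.06 for Ssr1.

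Among the 11 chaperones and their partners 7 fell and none rose, with a median log2 fold change of -0.145, and their summed level differed by -8.99%. Hspa5 (ENSMUSG00000026864, chromosome 2, bases 34771970 to 34777547, GRCm38) encodes BiP, the main ER chaperone of the HSP70 family. It stood at 902, 892 and 909 CPM in the vehicle libraries and at 821, 826 and 828 CPM in the uridine libraries. The groups were well apart, with a gap larger than the spread within either. The means were 901 ± 8.68 and 825 ± 3.77 CPM (SD, n = 3), a log2 fold change of -0.13 ± 0.017 (SE, adjusted p = 2.1e-08). Hyou1 (ENSMUSG00000032115, chromosome 9, 44379490 to 44392369), a large HSP70 relative that exchanges the nucleotide of BiP, had 339.5, 340.0 and 330.3 CPM in vehicle and 282, 276 and 277 CPM with uridine. All uridine values were lower, by 17.3% on average (-0.27 ± 0.025, adjusted p = 1.1e-14), the smallest p of the 40 genes. Hsp90b1 (ENSMUSG00000020048, chromosome 10, 86690209 to 86705509), the ER member of the HSP90 family, had 588, 617 and 611 CPM in vehicle and 545, 537 and 559 CPM with uridine. The groups did not overlap, and the log2 fold change was -0.15 ± 0.021 (adjusted p = 4.2e-08).

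Calreticulin and calnexin are lectin chaperones that hold newly made glycoproteins by their sugar chains, the former soluble and the latter in the membrane. Calr (ENSMUSG00000003814, chromosome 8, 84841850 to 84846934) had 1448, 1444 and 1445 CPM in vehicle and 1279, 1316 and 1279 CPM with uridine. Vehicle libraries were within a few CPM of each other and every uridine library lay far below them, a difference of -10.6% (-0.16 ± 0.016, adjusted p = 1.4e-13). Canx had 665, 683 and 675 CPM in vehicle and 653, 650.4 and 664 CPM with uridine, without overlap but close together, and did not pass the test (-0.04 ± 0.019, adjusted p = 0.15). Per length, Calr was the most abundant of the 40 genes, at a mean of 1568 TPM, against 673 TPM for Hspa5 and 468 TPM for Canx. TPM here are counts per deposited gene length, scaled to a common total.

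Sdf2l1 (ENSMUSG00000022769, chromosome 16, 17130138 to 17132383), a partner of BiP cochaperones, had 94.3, 91.5 and 92.5 CPM in vehicle and 78.5, 82.9 and 75.7 CPM with uridine. No uridine library reached the vehicle range (-14.7%, log2 fold change -0.23 ± 0.044, adjusted p = 3.5e-05). Dnajc3, a J-domain cochaperone of BiP also known as an inhibitor of the kinase PERK, had 168, 167 and 161 CPM in vehicle and 154, 149.7 and 147 CPM with uridine. It fell with a log2 fold change of -0.14 ± 0.033 (adjusted p = 0.00081), again without overlap. Manf, a secreted ER protein that binds BiP, had 136, 145 and 141 CPM in vehicle and 128, 119.8 and 134 CPM with uridine. Uridine replicate 3 came close to the first vehicle library, and the fall (-0.14 ± 0.037, adjusted p = 0.0023) was not called without uridine replicate 2 (adjusted p = 0.0814). Manf overlaps Rbm15b on the same strand and Dcaf1 on the other, both well counted, so its count is uncertain.

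The remaining 3 chaperone partners were not called. Dnajb9, a J-domain protein that restrains IRE1, had 22.0, 23.4 and 19.98 CPM in vehicle and 18.9, 20.7 and 18.9 CPM with uridine, overlapping (-0.16 ± 0.089, adjusted p = 0.25). Dnajb11, a J-domain partner of BiP in folding, differed by -0.05 ± 0.035 on the log2 scale (adjusted p = 0.44). Creld2, an ER protein induced by ER stress, lay on the other side of 0, with 51.8, 50.8 and 52.2 CPM in vehicle and 55.4, 53.9 and 55.3 CPM with uridine. Its groups did not overlap, and the test did not call it (0.09 ± 0.055, adjusted p = 0.30).

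**Figure D3:**
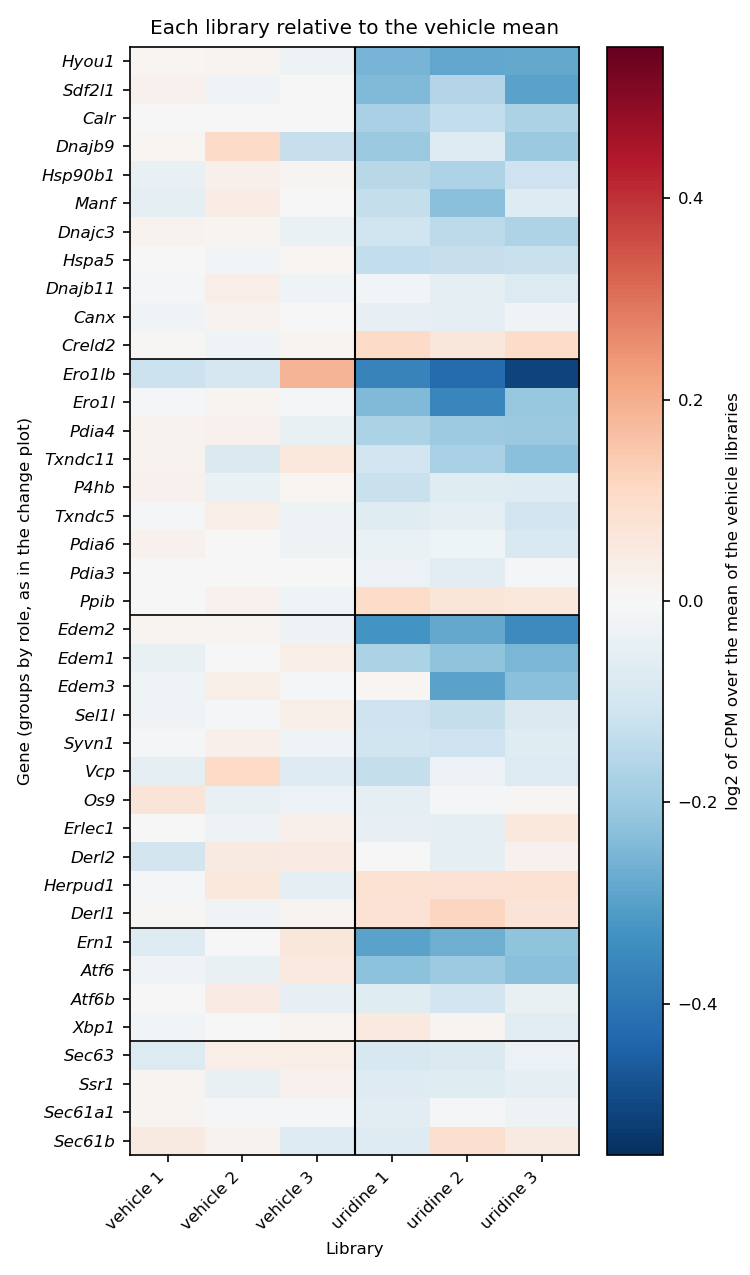
Log2 ratio of each library's CPM to the mean of the vehicle libraries for 39 of the 40 genes (Derl3, too low for a stable ratio, is left out), with vehicle replicates on the left and uridine replicates on the right of the line and genes grouped by role. Blue is lower and red higher; Ero1lb is the darkest blue of the uridine columns, and Creld2, Ppib, Herpud1 and Derl1 are red in all 3.

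Of 9 disulfide and isomerase enzymes 5 fell and none rose, with a median log2 fold change of -0.09 and a summed difference of -5.20%. Both ER oxidases, which pass oxidising equivalents to protein disulfide isomerases, were among them. Ero1lb (ENSMUSG00000057069, chromosome 13, 12565874 to 12611396) had 19.3, 19.6 and 23.8 CPM in vehicle and 16.2, 15.6 and 14.7 CPM with uridine. Its vehicle libraries were the more spread, and the means were 20.9 ± 2.53 and 15.5 ± 0.766 CPM (SD, n = 3). The difference of -25.8% (log2 fold change -0.43 ± 0.096, adjusted p = 0.00048) was the largest of the 40 genes, in a gene at only 9.04 TPM. Ero1l (ENSMUSG00000021831, chromosome 14, 45283087 to 45318771) had 84.7, 86.2 and 85.0 CPM in vehicle and 72.1, 66.5 and 73.9 CPM with uridine. All uridine libraries were clearly lower (-17.1%, -0.27 ± 0.046, adjusted p = 4.3e-06).

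The disulfide isomerases themselves moved unequally. Pdia4 (ENSMUSG00000025823, chromosome 6, 47796141 to 47813430) had 169, 169 and 162 CPM in vehicle and 148, 145 and 145 CPM with uridine, and fell by 12.4% (-0.19 ± 0.033, adjusted p = 4.5e-06). P4hb, the classic protein disulfide isomerase and at 746 TPM one of the most abundant of the set, had 678, 649 and 672 CPM in vehicle and 612, 636 and 635 CPM with uridine. Its groups were apart by less than their own spread, with a log2 fold change of -0.09 ± 0.020 (adjusted p = 0.00068). Pdia3, which works with calreticulin and calnexin on glycoproteins, had 588, 586 and 586 CPM in vehicle and 574, 564 and 584 CPM with uridine. Those groups did not overlap, and the difference was not called (-0.03 ± 0.020, adjusted p = 0.30). Nor were Pdia6 (-0.05 ± 0.024, adjusted p = 0.20) and Txndc5 (-0.07 ± 0.030, adjusted p = 0.079), both thioredoxin-domain isomerases.

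Txndc11, a thioredoxin-domain protein of the ER membrane, had 75, 70.0 and 76.9 CPM in vehicle and 68.8, 65.4 and 63.0 CPM with uridine. It fell (-0.17 ± 0.049, adjusted p = 0.0092), but its call was lost without vehicle replicate 3 (adjusted p = 0.0878), without uridine replicate 3 (0.0640) and with the length trend removed (0.0913). Txndc11 also overlaps Snn on the opposite strand. Ppib, the ER cyclophilin that isomerises prolines, had 89.2, 90.6 and 87.7 CPM in vehicle and 95.8, 93.4 and 92.9 CPM with uridine. Every uridine library was higher, and the difference did not pass the test (0.08 ± 0.042, adjusted p = 0.23).

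The 12 ERAD genes encode proteins that pick substrates, such as mannosidases and lectins, and the machinery that exports them. Of these 4 fell and 1 rose, with a median log2 fold change of -0.09, and their summed level differed by -5.20%. EDEM proteins trim mannose from misfolded glycoproteins and so mark them for degradation. Edem1 (ENSMUSG00000030104, chromosome 6, 108828641 to 108859356) had 262, 269 and 276 CPM in vehicle and 238, 230.2 and 226 CPM with uridine. The uridine libraries were all lower, by 13.9% on average (-0.22 ± 0.028, adjusted p = 2.6e-09). Edem2 (ENSMUSG00000038312, chromosome 2, 155701677 to 155729475) had 85.8, 85.9 and 83.3 CPM in vehicle and 67.6, 70.0 and 66.7 CPM with uridine. It fell by 19.8% (-0.32 ± 0.046, adjusted p = 6.8e-08), with a gap between the groups several times the spread within them. Edem3 had 83.5, 86.8 and 84.5 CPM in vehicle and 85.6, 69.4 and 72.4 CPM with uridine. Its first uridine library lay within the vehicle range and the other 2 far below it (-0.17 ± 0.054, adjusted p = 0.029). This call was lost in 9 of 17 alternatives, including DESeq2's Wald test (adjusted p = 0.27) and every omission of a library but that of uridine replicate 1: adjusted p was 0.0745, 0.133 and 0.0918 without vehicle replicates 1, 2 and 3, and 0.222 and 0.104 without uridine replicates 2 and 3.

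SEL1L and the ubiquitin ligase HRD1 (Syvn1) form the core of the main export complex. Sel1l had 152, 153 and 158 CPM in vehicle and 143, 141 and 146 CPM with uridine, without overlap (-0.11 ± 0.033, adjusted p = 0.014). It was not called when vehicle replicate 3 (adjusted p = 0.0991) or uridine replicate 2 (0.0815) was left out, or after removal of the length trend (0.232). Syvn1 had 76.0, 77.9 and 75.2 CPM in vehicle and 70.8, 70.6 and 72.9 CPM with uridine, also without overlap but not called (-0.10 ± 0.046, adjusted p = 0.15), and it overlaps Mrpl49 on the opposite strand.

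Derlins are membrane proteins of the export channel. Derl1 (ENSMUSG00000022365, chromosome 15, 57869502 to 57892448) was the 1 gene of the 40 called higher, with 203, 199.97 and 204 CPM in vehicle and 214, 219 and 213 CPM with uridine. Every uridine library was above every vehicle library (0.09 ± 0.029, adjusted p = 0.019). The call was lost without vehicle replicate 2 (adjusted p = 0.0890) and without uridine replicate 2 (0.108). Derl2 (-0.01 ± 0.054, adjusted p = 0.95) was not called, and it overlaps Mis12 on the opposite strand. Derl3, the least abundant of the 40 genes at 1.254 TPM, had 0.864, 0.899 and 0.724 CPM in vehicle and 0.409, 1.34 and 0.31 CPM with uridine, so that its uridine libraries spread to both sides of the vehicle range (-0.23 ± 0.46, adjusted p = 0.81).

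Herpud1, a membrane scaffold of the HRD1 complex and a classic target of ER stress, had 82.4, 86.4 and 80.0 CPM in vehicle and 87.9, 87.7 and 88.0 CPM with uridine. The uridine libraries were all above the vehicle ones and the difference was not called (0.08 ± 0.043, adjusted p = 0.20). Os9 and Erlec1 encode lectins that read trimmed mannose chains, and differed by -0.02 ± 0.030 (adjusted p = 0.77) and -0.01 ± 0.075 (adjusted p = 0.94) on the log2 scale. Erlec1 overlaps Asb3 on the opposite strand. Vcp, the ATPase that pulls substrates out of the membrane, had 553, 618 and 545 CPM in vehicle and 522, 559 and 543 CPM with uridine. Its second vehicle library stood apart from the other values (-0.08 ± 0.063, adjusted p = 0.52), and with the replicate number as a block or with no count filter it was called lower (adjusted p = 0.0137 and 0.0328).

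Of the stress sensors and their effectors, Ern1 and Atf6 fell and the other 2 were not called, with a median log2 fold change of -0.145 and a summed difference of -8.45%. Ern1 (ENSMUSG00000020715, chromosome 11, 106394650 to 106487852), which encodes the kinase and ribonuclease IRE1, had 141, 148 and 155 CPM in vehicle and 121, 123 and 127 CPM with uridine. The groups did not overlap, and the means were 148 ± 6.91 and 123 ± 3.09 CPM (SD, n = 3), a difference of -16.5% (-0.26 ± 0.036, adjusted p = 2.3e-08). Xbp1, whose messenger RNA IRE1 splices, had 138, 139 and 141 CPM in vehicle and 145, 141 and 134 CPM with uridine. Its uridine values fell on both sides of the vehicle range (0.004 ± 0.035, adjusted p = 0.96), and counts per gene do not separate the spliced from the unspliced form. Atf6 (ENSMUSG00000026663, chromosome 1, 170704674 to 170867771) had 80.9, 79.8 and 85.2 CPM in vehicle and 70.2, 71.3 and 69.8 CPM with uridine. All 3 uridine libraries were lower (-14.1%, -0.22 ± 0.046, adjusted p = 0.00019). Atf6b, its relative, had 119, 123 and 115 CPM in vehicle and 114, 111 and 116 CPM with uridine, overlapping (-0.07 ± 0.038, adjusted p = 0.21).

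Translocon genes differed least, with a median log2 fold change of -0.05 and a summed difference of -2.97%. Sec61a1, the pore subunit, had 305, 298 and 300.2 CPM in vehicle and 289, 298 and 295 CPM with uridine, and Sec61b, a small subunit of the same channel, had 107, 105 and 98.3 CPM and 98.3, 109.6 and 107 CPM. Neither was called (-0.03 ± 0.025, adjusted p = 0.44, and 0.02 ± 0.041, adjusted p = 0.78), and nor was Sec63 (-0.07 ± 0.039, adjusted p = 0.25), which recruits BiP to the channel. Ssr1, a subunit of the translocon-associated TRAP complex, had 389, 374 and 391 CPM in vehicle and 366, 368 and 370.4 CPM with uridine. It passed the test by a narrow margin (-0.06 ± 0.023, adjusted p = 0.046). The call was lost in 12 of 17 alternatives, among them the omission of any library other than vehicle replicate 2, with adjusted p of 0.152 and 0.221 without vehicle replicates 1 and 3 and of 0.126, 0.108 and 0.0647 without uridine replicates 1, 2 and 3. With the length trend removed its log2 fold change was -0.002 (adjusted p = 0.967).

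**Figure D4:**
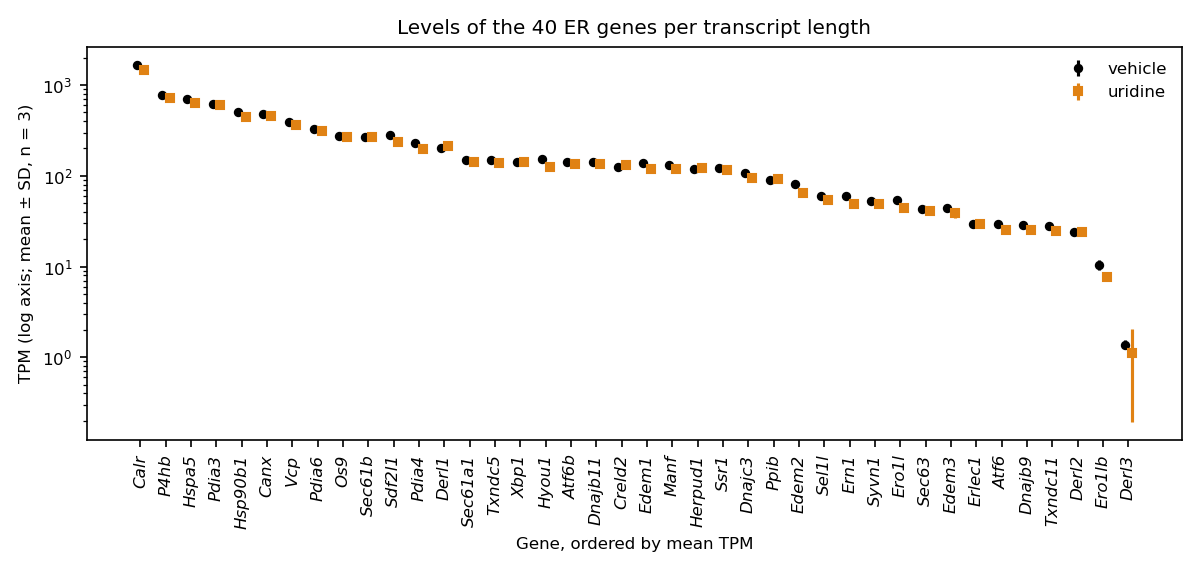
Level of each of the 40 genes in TPM (log axis), mean ± SD over 3 vehicle libraries (black circles) and 3 uridine libraries (orange squares), ordered by mean level. TPM are counts per deposited gene length, which the title calls transcript length. Levels run from 1568 TPM for Calr to 1.254 TPM for Derl3, and most error bars are smaller than the symbols.

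Levels of the 40 genes spanned a wide range, with a median of 128 TPM. Genes that fell had a median of 119 TPM and those not called a median of 139 TPM. Genes that fell were longer, with a median length in the deposited table of 5285 bases against 3254 bases for those not called. Over all tested genes the log2 fold change and the log2 length had a correlation of -0.129, given as a description since genes share their libraries. When this trend was removed, 15 of the 40 genes were called lower and 1 higher, against 8% and 7.72% of all genes.

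ERSE-bearing genes were found on both sides of the call. Of the 16 genes that fell and had a promoter, 5 held an ERSE (Hspa5, Hsp90b1, Calr, Dnajc3 and Ero1lb), and of 18 not called 5 did (Canx, Creld2, Pdia6, Syvn1 and Derl3). By role the motif was in 6 of 9 chaperone promoters, 2 of 9 disulfide enzyme promoters, 2 of 10 ERAD promoters, 0 of 3 sensor promoters and 0 of 3 translocon promoters. Herpud1 and Dnajb11, the genes with ERSE-II, were not called.

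Genes of the same compartment outside the 40 were read from 8 further lists, also chosen with earlier results of these data known. Together 153 of them were tested, of which 24 (15.7%) were called lower and 13 higher, with a median log2 fold change of -0.01. The background of calls lower was 10.1% over all genes and 13.1% over genes at 15 CPM or more. For calls higher it was 7.18% and 9.99%. Of 30 called genes that the naming rule picked from these lists, 14 kept their call in all 17 alternatives, and those are given with values below. Called higher but lost in some alternative were Prdx4, Dad1, Aup1, Ube2j2, Ubxn4, Srp9, Ssr4, Tmed9, Ergic3 and Tex264. Called lower but lost in some alternative were Nploc4, Svip, Ssr3, Mbtps1, Atl3 and Rtn3. Most of the lost calls were higher ones, so the genes given with values lean toward falls.

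Among 31 other ER folding enzymes 6 were called lower and 1 higher. Dnajc10, a reductase with a J domain that works with BiP in ERAD, fell (-0.28 ± 0.036, adjusted p = 3.7e-09), as did the thioredoxin-like membrane protein Tmx4 (-0.31 ± 0.044, adjusted p = 5.1e-08) and Serp1, a translocon-associated protein of ER stress (-0.15 ± 0.028, adjusted p = 1.6e-05). Of 18 genes for N-glycan transfer and glycoprotein quality control, 3 were called lower and 1 higher. Uggt1, the sensor enzyme that sends unfolded glycoproteins back to calreticulin and calnexin, fell (-0.20 ± 0.030, adjusted p = 1.3e-07). Rpn2, a subunit of the oligosaccharyltransferase, fell less (-0.09 ± 0.022, adjusted p = 0.0015), and Ganab, a subunit of glucosidase II, fell by a similar amount (-0.09 ± 0.023, adjusted p = 0.0055).

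Other ERAD genes gave 2 calls lower and 3 higher of 22, and signal peptide targeting and translocation 2 lower and 3 higher of 23. In the latter list Sec61g, a small subunit of the SEC61 channel, rose (0.31 ± 0.068, adjusted p = 0.00035) and Spcs3, a subunit of signal peptidase, fell (-0.10 ± 0.025, adjusted p = 0.0017). COPII coat and ER-Golgi recycling genes gave 7 calls lower and 2 higher of 28, with falls of Sec31a (-0.17 ± 0.029, adjusted p = 7.2e-06) and Sec16a (-0.15, adjusted p = 0.00042), parts of the coat and its assembly sites, and of the cargo receptor Tmed2 (-0.13, adjusted p = 0.00036). ER-phagy receptors gave 2 calls lower and 1 higher of 7.

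Signalling genes of the response were read in 2 lists, each with 16.7% of its tested genes called, near the 17.3% of all genes. Of 12 other signalling genes 2 were called lower and none higher, among them Creb3l2, an ER membrane transcription factor related to ATF6 (-0.29 ± 0.060, adjusted p = 0.00013). Of 12 genes of the PERK branch none was called lower and 2 were called higher, with a median log2 fold change of 0.08. Ppp1r15a, the phosphatase subunit that reverses the translational block, rose from 34.2 to 42.2 CPM (0.31 ± 0.066, adjusted p = 0.00028). Atf4, the transcription factor of the branch, rose from 202 to 220 CPM (0.12 ± 0.029, adjusted p = 0.0011). Eif2ak3, the PERK kinase itself, did not pass the test (-0.14 ± 0.066, adjusted p = 0.16), nor did Ddit3, the late stress factor CHOP (0.07 ± 0.13, adjusted p = 0.79). Whether the branches differ from each other was not tested.

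**Figure D5:**
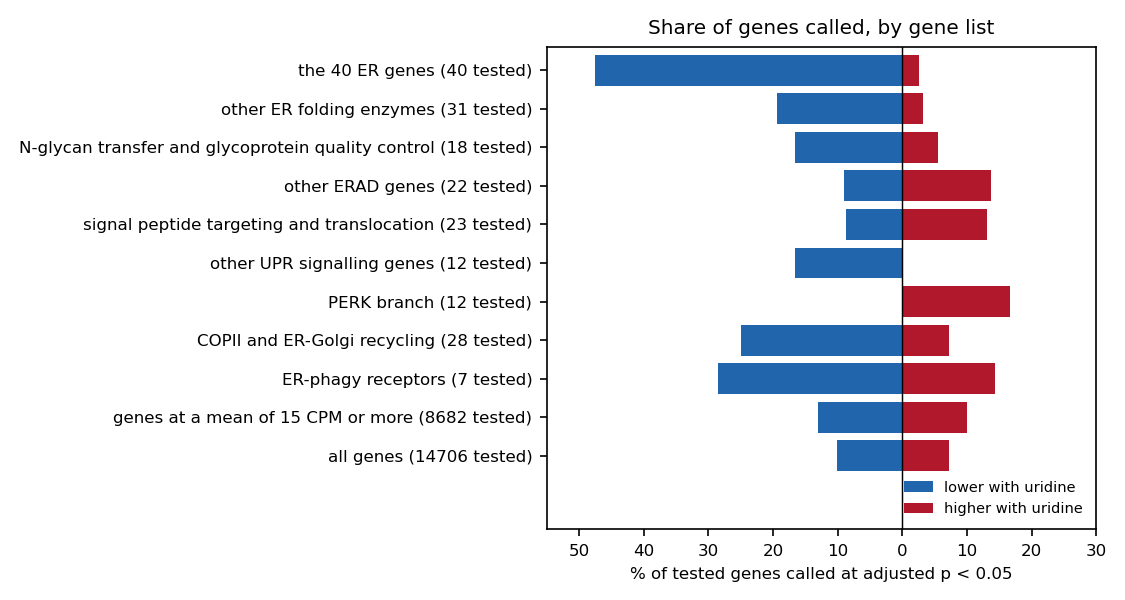
Share of tested genes called lower (blue, to the left) and higher (red, to the right) at an adjusted p under 0.05 in the 40 ER genes, in 8 further lists of the same compartment and in both backgrounds, with the number tested in brackets. The 40 genes have 47.5% called lower, against 10.1% of all genes and 13.1% of genes at a mean of 15 CPM or more. The PERK branch has calls on the higher side and none on the lower. Its called share is 16.7%, near the 17.3% of all genes.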

How the data were processed

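The authors deposited 1 table of whole-number counts, genes by 6 libraries, which was used unchanged. Per the submitters' processing notes HISAT2 2.0.5 and mm10 were used. Not given in the sources used here were the counting program, annotation release and strand setting, so counts of overlapping genes are uncertain. Gene length is the deposited table's other column used, for TPM (counts per length, scaled to a common total), which were computed here.

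Counts were filtered with filterByExpr (14706 genes left), TMM-scaled and tested with edgeR 4.0.16 (R 4.3.3; glmQLFit with robust estimation, quasi-likelihood F test, treatment as the single term). Every adjusted p is Benjamini-Hochberg over all tested genes, unless an alternative is named, and calls were made under 0.05. Fold changes are log2 of uridine over vehicle ± SE, and CPM values are TMM-scaled. The test was tried first on simulated counts with the same dispersion for every gene, which is simpler than these data. That trial is not used as support here. Alternatives were DESeq2 1.42.0, limma-voom (limma 3.58.1), other scalings and filters, protein-coding nuclear genes, the replicate block, removal of the length trend (a smooth trend of each library's log ratio on log gene length) and each library left out.

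Members and lists were chosen with earlier results of these data known. All 40 members are named. From each other list the rule took up to 3 called genes with the smallest p in each direction. The text gives values for those that kept their call in every alternative and only names the others. Values are also given for Eif2ak3 and Ddit3, which were chosen after their values were seen. Cell marker lists are given as counts and sums, with some markers singled out after their values were seen. Chi-square per gene between libraries of a group was 2.27 to 2.51, so none was treated as a duplicate. Since nothing states that replicates were separate cultures or animals, p-values measure the spread of these libraries alone and may be technical. Deviations of same-numbered libraries correlated at -0.015, 0.027 and -0.014, so the numbers were not used as pairs. Protein sequences were not analysed here.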

Additional observations from a re-analysis of the deposited data

How the results depend on the processing

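The count of genes lower with uridine stayed between 15 and 19 over 17 alternatives, and 14 of the 20 called genes kept their call in all of them. With the replicate number as a block, 19 genes were called lower, 18 of them the same, and 1 higher. Leaving out single libraries gave 15 to 18 called lower, 0 to 1 higher (0 without vehicle replicate 2 and without uridine replicate 2), medians of -0.101 to -0.075 and summed differences of -7.02% to -6.65%. The summed difference was -6.29% with library size alone and -6.25% with upper quartile factors. No called gene changed sign. Estimates close to 0 did: Derl2 was 0.000719 with library size alone, 0.001293 with upper quartile factors, 0.03482 after removal of the length trend and 0.03586 with the block as well, Xbp1 was -0.000562 and -0.001221 and Sec61b -0.02406 and -0.02504 under the last 2 settings. With single libraries left out, estimates ran from -0.05471 to 0.01672 for Derl2, from -1.183 to 0.09324 for Derl3, from -0.03782 to 0.02048 for Os9, from -0.04876 to 0.008104 for Erlec1, from -0.01957 to 0.03146 for Xbp1 and from -0.01077 to 0.06899 for Sec61b. The cause was not tested. At 3 libraries a group, changes of the size of these SEs could not be called, and Derl3 was counted too thinly for any statement.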
